A study of Homo sapiens with 70 samples.

Results

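The very long genes of the human autosomes were examined as a class: genes whose span, from the first to the last annotated exon base, was at least 300 kb. The span was taken from the exon coordinates listed in the count table of IMR90 cells with a short hairpin RNA against HMGA1, on hg19 with the GENCODE19 gene models, and no expression value entered the choice. The rule found 914 genes among 44503 listed, and the remaining 41800 autosomal genes were used as the shorter genes. Gene expression was measured by polyA RNA-seq in 70 libraries of cell lines. IMR90 are human lung fibroblasts, and all IMR90 libraries carried ER:HRAS G12V, an oncogenic RAS fused to a receptor domain that 4-hydroxytamoxifen (4OHT) switches on. Treatment with 100 nM 4OHT for 6 days gave oncogene-induced senescence (OIS). The first experiment had 8 libraries each of Grow (no 4OHT, pMSCV miR v vector), Grow-shA1 (no 4OHT, pMSCV miR shHMGA1), OIS (4OHT, vector) and OIS-shA1 (4OHT, shHMGA1). The second had 5 libraries each of Grow-v-v (no 4OHT, the empty pSuper and pMSCV miR vectors), OIS-v-v (4OHT, both empty vectors), OIS-shCEBPB (4OHT, pSuper shCEBPB with the empty pMSCV miR), OIS-shp53 (4OHT, pMSCV miR p53 with the empty pSuper) and OIS-shCEBPB-shp53 (4OHT, both hairpins). The third used H1299, a line of non-small cell lung carcinoma without the RAS construct, with 7 libraries of the vector pMSCV miR v (H1299) and 6 of pMSCV miR shHMGA1 (H1299-shA1). The sources name 1 hairpin for each target. The labels' protocol and the study's methods call the libraries biological replicates, but the numbers they state per condition differ from those of the libraries listed, and what made a replicate separate is not given in the sources used here. The p-values below thus measure the spread between these libraries.

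A gene of this size is almost entirely intron. RNA polymerase II needs hours to cross it, so a transcript of such a gene is completed long after it was begun, and co-transcriptional splicing has to join exons that lie far apart. Many very long genes encode cell adhesion molecules, ion channels, phosphodiesterases and scaffold proteins, they are prominent in neurons, and several coincide with common fragile sites. HMGA1 binds AT-rich DNA through its AT-hooks and is a structural part of the heterochromatin foci of senescent fibroblasts. C/EBPβ is a transcription factor of the senescence-associated secretory programme.

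The rule fixed the span, and with it the small share of the span that exons fill; gene type, AT content and chromosome were not used. Protein-coding genes made up 81.2% of the 914 (742 genes, against 42.4% of shorter genes), and 148 were long noncoding RNAs. The median span was 436000 bases, with 576 genes of 300 to 500 kb, 279 of 500 kb to 1 Mb and 59 of 1 Mb or more. The longest, CNTNAP2, covered 2304638 bases (chr7:145813453-148118090, hg19). Exons filled a median of 1.48% of the span, against 25.97% in shorter genes, although the exonic length itself was larger (median 7362 bases against 1204). The span was AT-rich: the median AT content was 61.2% against 55.3%, and 63.4% of very long genes were at 60% or above against 26.1% of shorter genes. Chromosome 3 held 92 of them (3.85% of its genes) and chromosome 2 held 88 (2.85%), whereas chromosome 19 held 3 (0.12%). Chromosome 18, with 34, had a share of 3.73%. Exons of 347 overlapped those of another gene, and the counting did not use strand, so reads of such overlaps cannot be told apart from those of the neighbour.

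The AT richness of the body did not extend to the start of the gene. In the RefSeq promoters (GRCh38.p14, 250 bases before to 50 after the start), found for 663 of the very long genes, the median AT content was 36.7%, beside 38% for shorter genes and 41.7% for all 27305 promoters of that table. A run of at least 6 A or T bases in any order, read on both strands and overlapping with no other motif searched, occurred in 57.8% of them, in 56.4% of shorter genes and in 62.0% of all promoters. Promoters are shown for 4 of the genes named for large changes in senescence (values below), a pair that rose and a pair that fell, with those runs in capitals. They lie at chr5:95285045-95285344 (minus strand), chr5:76403035-76403334 (plus), chr6:135851451-135851750 (plus) and chr14:78170123-78170422 (plus), in the order given.
MCTP1: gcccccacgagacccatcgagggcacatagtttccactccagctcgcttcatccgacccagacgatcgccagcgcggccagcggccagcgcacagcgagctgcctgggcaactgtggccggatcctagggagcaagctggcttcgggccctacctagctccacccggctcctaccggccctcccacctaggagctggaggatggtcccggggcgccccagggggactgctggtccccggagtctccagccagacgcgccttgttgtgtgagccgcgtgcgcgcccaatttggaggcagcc
IQGAP2: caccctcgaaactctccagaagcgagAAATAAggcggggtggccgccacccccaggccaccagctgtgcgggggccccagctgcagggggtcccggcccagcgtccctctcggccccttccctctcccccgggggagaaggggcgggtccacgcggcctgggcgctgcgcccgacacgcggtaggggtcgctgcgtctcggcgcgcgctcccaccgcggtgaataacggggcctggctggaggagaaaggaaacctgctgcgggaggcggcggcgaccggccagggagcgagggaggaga
PDE7B: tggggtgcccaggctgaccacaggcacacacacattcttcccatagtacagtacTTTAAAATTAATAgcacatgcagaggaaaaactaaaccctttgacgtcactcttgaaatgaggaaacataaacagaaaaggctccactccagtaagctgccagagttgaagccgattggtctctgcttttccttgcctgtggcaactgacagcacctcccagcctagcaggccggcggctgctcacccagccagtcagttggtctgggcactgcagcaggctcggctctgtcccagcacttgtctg
NRXN3: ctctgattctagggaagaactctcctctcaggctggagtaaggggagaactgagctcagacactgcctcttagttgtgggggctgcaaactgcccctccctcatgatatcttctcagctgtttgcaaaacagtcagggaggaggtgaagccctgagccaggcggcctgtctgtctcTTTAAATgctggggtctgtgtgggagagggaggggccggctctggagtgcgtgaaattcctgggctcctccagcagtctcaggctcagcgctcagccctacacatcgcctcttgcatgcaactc
The promoter of MCTP1 held no such run, that of IQGAP2 held 1 of 6 bases, that of PDE7B 1 of 13 and that of NRXN3 1 of 7. A match is a description of the letters only.

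The libraries held between 1903607 and 24890797 counts. The mRNAs of HMGA1 and CEBPB were lower where they were targeted: HMGA1 averaged 482 CPM ± 41.4 (SD, n = 8; CPM are counts scaled to a common library total) in Grow and 34.7 ± 3.93 in Grow-shA1, 733 ± 68.0 in OIS and 59.6 ± 5.65 in OIS-shA1, and 1888 ± 94.6 (n = 7) in H1299 and 379 ± 35.4 (n = 6) in H1299-shA1. CEBPB averaged 295 CPM in OIS-v-v, 35.5 in OIS-shCEBPB and 32.6 in OIS-shCEBPB-shp53. All 8 fibroblast markers reached 1 CPM in each IMR90 group, and at most 2 of 8 did so in H1299; their summed level was 37500 to 46790 CPM in Grow and 5531 to 6835 CPM in OIS. Some libraries stood apart. OIS replicate 4 was the shallowest, all others holding at least 13904974 counts. In the second experiment, replicates 1 to 3 and replicates 4 and 5 of every group formed separate sets (the lowest Spearman correlation within a set was 0.989 to 0.998 and the highest between sets 0.985 to 0.993), and values are therefore also given within each set. The labels name no batch. The study's methods give alternative library kits and alternative sequencers for RNA-seq and do not say which samples used which. Grow-v-v replicate 5 departed from the rest of its group in proportion to gene features, with a Spearman correlation over 12245 genes of −0.42 with exonic length, −0.37 with span and −0.34 with AT content, which is a description over genes that share 1 library.

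About as many very long genes as not were expressed. In the first experiment 448 of the 914 (49.0%) averaged at least 1 CPM, against 28% of shorter genes. The 2 sets differ in gene type (81.2% and 42.4% protein-coding), and these shares were not compared within a type. The share was 48.7% in the second experiment and 48.8% in H1299, and 112, 90 and 113 genes respectively had no count in any library. They held a small share of all counts: 2.34% ± 0.061 (SD, n = 8) in Grow, 2.44% ± 0.071 in Grow-shA1, 2.12% ± 0.050 in OIS and 2.07% ± 0.037 in OIS-shA1. In the second experiment (n = 5) the share was 1.86% ± 0.23 in Grow-v-v, 1.71% ± 0.099 in OIS-v-v, 1.80% ± 0.062 in OIS-shp53, 1.92% ± 0.074 in OIS-shCEBPB and 1.997% ± 0.050 in OIS-shCEBPB-shp53. It was 1.57% ± 0.033 in H1299 and 1.57% ± 0.035 in H1299-shA1.

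To ask whether the class moves with RAS senescence, OIS was compared with Grow. Very long genes were lower in OIS as a class. Of the 473 that passed the filter on low counts, 247 fell and 134 rose (edgeR quasi-likelihood test, Benjamini-Hochberg adjusted p under 0.05). That is 52.2% lower and 28.3% higher, where 35.9% of all 13304 genes tested were called lower and 38.8% higher, and 35.1% and 39.3% of shorter genes. The median log2 fold change was −0.23 over very long genes and 0.04 over shorter genes, a class shift (the first median less the second) of −0.26. This difference does not change when a library is rescaled. No p is given for such a shift. In bulk RNA, fewer cells of a type and less RNA per cell cannot be told apart.

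The same shift was read library by library. For each library the class offset is the median over very long genes of its log2 CPM less the mean of the baseline group, less the same median over shorter genes. The lowest, median and highest of the 8 OIS offsets were −0.30, −0.26 and −0.19, and those of Grow −0.05, 0.02 and 0.04, so that every OIS library lay below every Grow library. The shallow OIS replicate 4 was inside this range, at −0.22. With HMGA1 depleted in both arms, the offsets of OIS-shA1 were −0.25, −0.22 and −0.20 and those of Grow-shA1 −0.06, −0.01 and 0.06, again with no overlap. In that comparison 238 of 459 very long genes fell (51.9%, with 36% of all genes tested called lower) and 132 rose (28.8%, with 37.1% of all genes called higher), the medians were −0.21 and 0.02 and the class shift was −0.24.

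**Figure D1:**
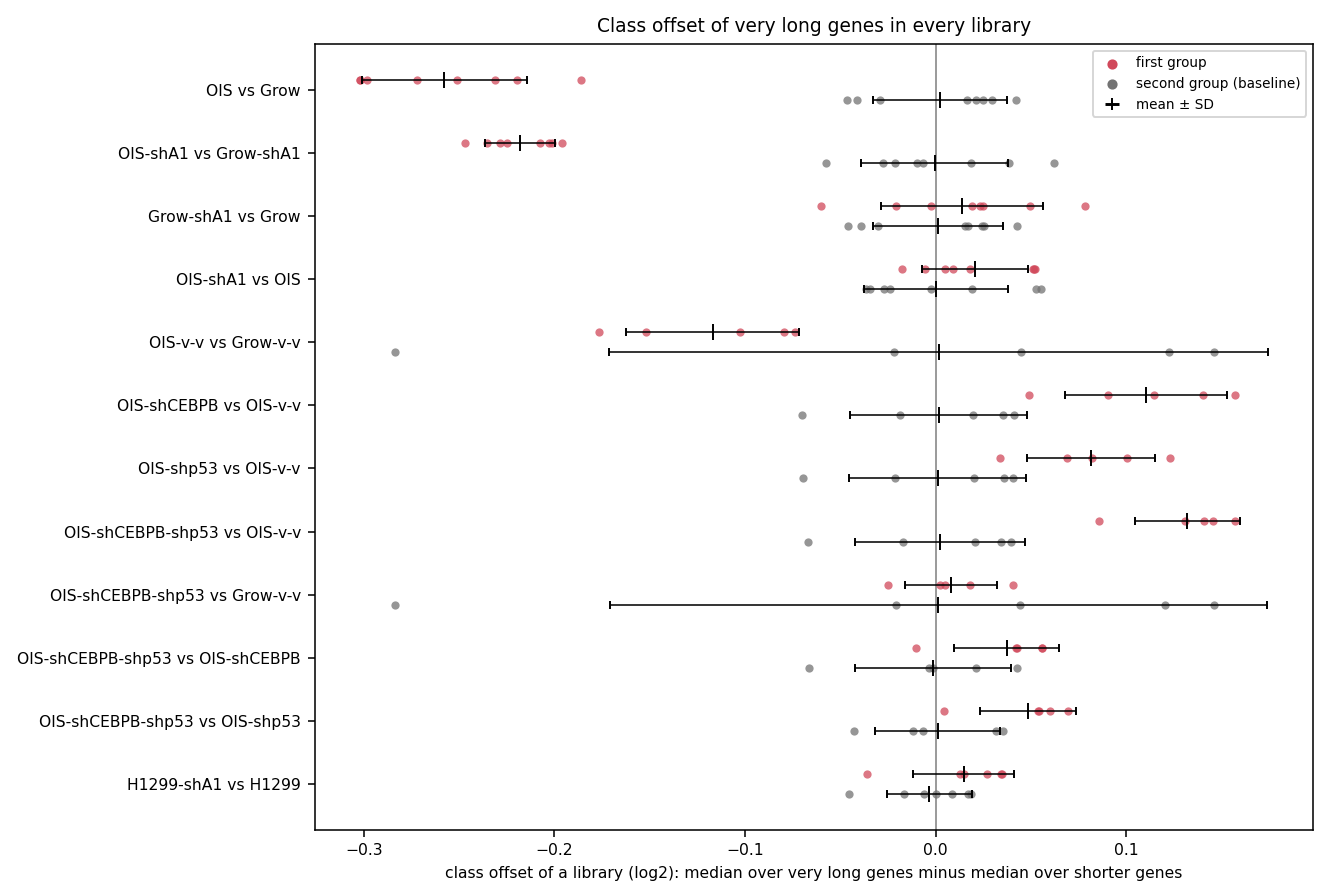
Class offset (log2) of the very long genes in every library, by comparison, with red points for the first group named, grey points for the baseline and black marks for the mean ± SD. The groups do not overlap in OIS against Grow and OIS-shA1 against Grow-shA1, where the first group is lower, nor in OIS-shCEBPB and OIS-shCEBPB-shp53 against OIS-v-v, where it is higher.

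The fall in OIS was graded by span, on both sides of the 300 kb limit. The median log2 fold change of OIS against Grow was 0.14 for genes under 10 kb (2787 tested), 0.04 at 10 to 30 kb, 0.01 at 30 to 100 kb and −0.06 at 100 to 300 kb. Within the very long genes it was −0.18 at 300 to 500 kb (312 tested), −0.31 at 500 kb to 1 Mb (140) and −0.34 at 1 Mb or more (21). The share called lower went from 26.7% under 10 kb to 61.9% at 1 Mb or more, and the share called higher from 43.1% to 19.05%. With HMGA1 depleted the medians over the same classes were 0.10, 0.04, 0.01, −0.09, −0.18, −0.38 and −0.34. Among the very long genes themselves the relation to span was weak: the Spearman correlation of their fold change with span was −0.09 over 473 genes of the same libraries. Just inside the limit, HSD17B12 (span 300182 bases) had a log2 fold change of −0.51, MGMT (300824) of −0.64 and KMT2C (301081) of −0.12. Just outside it, PCBP3 (298761) had 0.09, MIR4435-2HG (298751) −0.26 and JMJD1C (298742) 0.64.

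**Figure D2:**
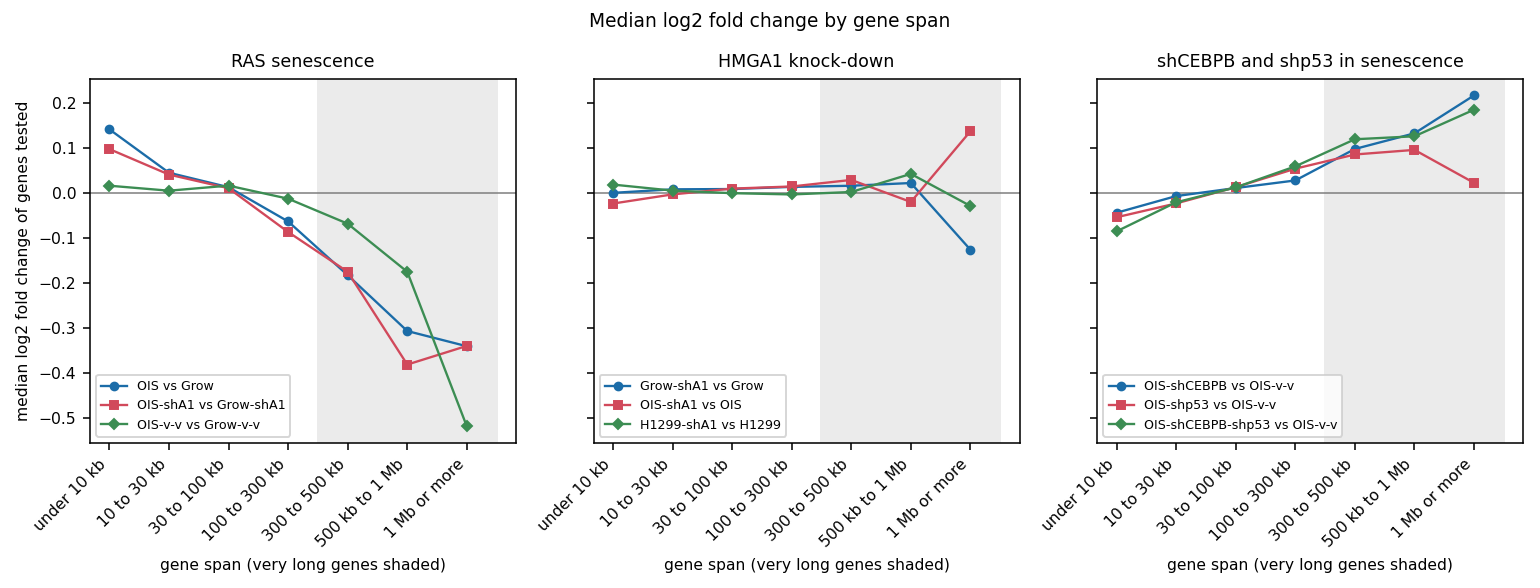
Median log2 fold change of the genes tested in 7 classes of span, with the very long classes shaded; panels hold the comparisons of senescence, of HMGA1 depletion and of shCEBPB, shp53 and both hairpins. In OIS against Grow the median passes from 0.14 in the shortest class to −0.34 in the longest, and in OIS-shCEBPB-shp53 against OIS-v-v from −0.09 to 0.18.

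Other features of the genes moved with span, so the comparison was repeated within strata of each. Within genes of 1 to 10 CPM the very long genes lay 0.24 below the shorter ones in median log2 fold change, within 10 to 100 CPM 0.30 below and at 100 CPM or more 0.18 below. With exonic lengths under 5 kb they lay 0.12 below, at 5 to 10 kb 0.27 below and at 10 kb or more 0.29 below. With an AT content under 60% they lay 0.17 below and at 60% or above 0.28 below. The direction was thus shared by all 8 strata examined in OIS against Grow. In other comparisons it nearly vanished with exonic lengths under 5 kb. There the difference was −0.0056 in OIS-shA1 against Grow-shA1 (65 very long genes) and 0.0052 with both hairpins against OIS-v-v (63). The other strata of these comparisons lay below 0 and above 0, respectively.

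Some members rose steeply although the class was lower. MCTP1 encodes a calcium-binding protein with C2 domains (chr5:94039446-94620279, hg19, 580834 bases). Its lowest, median and highest level was 0.152, 0.393 and 0.680 CPM in Grow and 24.3, 28.4 and 32.3 CPM in OIS, a log2 fold change of 6.24 ± 0.13 (SE; edgeR adjusted p = 1.19e-25). All 8 OIS libraries lay far above all Grow libraries. IQGAP2, a scaffold that binds actin and small GTPases (304884 bases), was at 0.109, 0.379 and 0.737 CPM in Grow and 10.3, 13.6 and 20.98 CPM in OIS (log2 fold change 5.12 ± 0.21, adjusted p = 8.60e-19). MYO16, an unconventional myosin (611856 bases), was at 0.175, 0.335 and 1.06 CPM in Grow and 2.77, 3.47 and 4.77 CPM in OIS (3.08 ± 0.24, adjusted p = 2.46e-12). The groups of each gene did not overlap, which was fixed by the choice. Here and below, the largest rises and falls of each pairwise comparison were taken only from genes whose groups did not overlap. Of the 473 very long genes tested, 92 were apart upward in OIS and 185 downward. Of the 12400 shorter genes tested, 2359 and 2989 were.

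The deepest falls left little transcript. NRXN3, the presynaptic adhesion protein neurexin 3 (chr14:78708734-80330762, 1622029 bases), was at 2.96, 6.89 and 7.86 CPM in Grow and 0, 0.220 and 0.393 CPM in OIS, a log2 fold change of −4.78 ± 0.28 (edgeR adjusted p = 3.21e-15). PDE7B, a phosphodiesterase that degrades cyclic AMP (343879 bases), was at 4.88, 7.72 and 10.96 CPM in Grow and 0, 0.301 and 0.638 CPM in OIS (−4.44 ± 0.24, adjusted p = 7.07e-16). TMEM178B, a transmembrane protein gene of 406149 bases, was at 5.76, 8.10 and 9.89 CPM in Grow and 0, 0.252 and 0.516 CPM in OIS (−4.71 ± 0.22, adjusted p = 1.47e-17). Every OIS library lay below every Grow library for all 3 genes, as their choice required. With HMGA1 depleted, OCA2, a melanosomal membrane transporter, rose from 0, 0.0692 and 0.472 CPM in Grow-shA1 to 3.04, 4.09 and 4.80 CPM in OIS-shA1 (4.95 ± 0.32, adjusted p = 1.23e-13). PCDH7, a protocadherin, fell in the same comparison from 3.45, 6.62 and 9.24 CPM to 0.176, 0.362 and 0.789 CPM (−3.88 ± 0.25, adjusted p = 9.39e-14).

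The members were also counted by role in OIS against Grow. The lists were drawn from general knowledge with results of these data known, and they are described by counts only, beside the 52.2% lower and 28.3% higher of the class. Among adhesion and axon guidance genes, 15 of 23 tested fell and 4 rose (median −1.06). SEMA5A, a semaphorin, changed by −1.06 ± 0.05 and TENM3, a teneurin, by −2.07 ± 0.05, whereas the semaphorin SEMA3A was called in neither direction. Not all single genes given here and in the next paragraph are typical of their lists. EDIL3, ROR1 and XYLT1 had the lowest fold change of theirs. TENM3, ROR1 and UTRN were picked for their level in H1299 and not in IMR90. CDH13, PTPRK, DST and LPP, picked for their level in IMR90, were also called lower. Of the cyclic AMP and calcium signalling genes 16 of 24 fell and 5 rose (median −0.81). PLCB4, a phospholipase C, changed by −2.60 ± 0.06, whereas PDE4B, another cyclic AMP phosphodiesterase, rose by 2.27 ± 0.06. Of the extracellular proteins 7 of 9 fell and 2 rose (median −1.18), among them EDIL3, an integrin ligand (−2.99 ± 0.08), and LAMA2, a laminin chain (−1.18 ± 0.08). Of the cytoskeleton and polarity genes 14 of 23 fell and 6 rose (median −0.45), including UTRN, the dystrophin relative utrophin (−1.87 ± 0.07), while the cytoskeletal linker MACF1 was at −0.01 ± 0.06.

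The remaining lists gave mixed counts. Receptor kinases and phosphatases fell in 5 of 7 and rose in 2 (median −0.43), with PTPRM at −1.29 ± 0.05 and ROR1 at −2.20 ± 0.15. Genes of vesicle trafficking and metabolism fell in 13 of 26 and rose in 2 (median −0.17); XYLT1, which starts proteoglycan sugar chains, changed by −2.01 ± 0.06. Regulators of small GTPases fell in 12 of 25 and rose in 10 (median −0.19), and transcription regulators fell in 13 of 34 and rose in 13 (median −0.02), with GLIS3 at 1.15 ± 0.05 and RUNX1 at −0.34 ± 0.05. Of the genes at common fragile sites, 3 of 9 fell (median −0.02), and in that list PTPRG was at −0.37 ± 0.04 and DPYD at 0.01 ± 0.07.

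To ask what HMGA1 does to the class, knock-down libraries were compared with vector libraries in each state. In Grow-shA1 against Grow, 116 of 462 very long genes rose and 98 fell (25.1% and 21.2%; 14.8% and 15.1% of all 13072 genes tested). Together 46.3% were called in either direction, beside 29.9% of all genes and 29.2% of shorter genes. In OIS-shA1 against OIS, 140 of 461 rose and 107 fell (30.4% and 23.2%; 18.8% and 17.1% of all genes tested), which is 53.6% in either direction beside 35.9% of all genes and 35.2% of shorter genes. The share called climbed with span below the 300 kb limit too. Between genes under 10 kb and genes of 100 to 300 kb it went from 23.8% to 37.2% in growth. In senescence it went from 30.4% to 43.5%. The class as a whole stayed level: the medians of very long and shorter genes were 0.02 and 0.01 in Grow-shA1 and 0.02 and 0.00 in OIS-shA1, the class shifts were 0.01 and 0.02, and the class offsets of both groups overlapped in each case. The median absolute log2 fold change was 0.18 over very long and 0.12 over shorter genes in growth, and 0.23 and 0.15 in senescence.

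The shares called were also read within levels of expression. At 1 to 10 CPM, 44.3% of very long and 21.3% of shorter genes were called in Grow-shA1 against Grow; at 10 to 100 CPM the shares were 48.9% and 30.3%, and at 100 CPM or more 47.8% and 42.6%. In OIS-shA1 against OIS they were 49.7% and 29.7%, 57.4% and 37.7%, and 60.8% and 44.6%. With a minimum fold of 1.5, 75 and 79 very long genes were called in growth and senescence, in place of 214 and 247. The genes called were partly shared: no library is common to both comparisons, and of the 437 very long genes tested in both, 116 rose in growth and 134 in senescence, 65 of them in both (56.0% and 48.5% of the respective lists). Another 51 fell in both (60% of the 85 that fell in growth and 51.0% of the 100 that fell in senescence), and 11 were called in opposite directions. Among shorter genes 41.5% of those that rose in growth also rose in senescence, and 34.8% of those that fell in growth also fell.

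**Figure D3:**
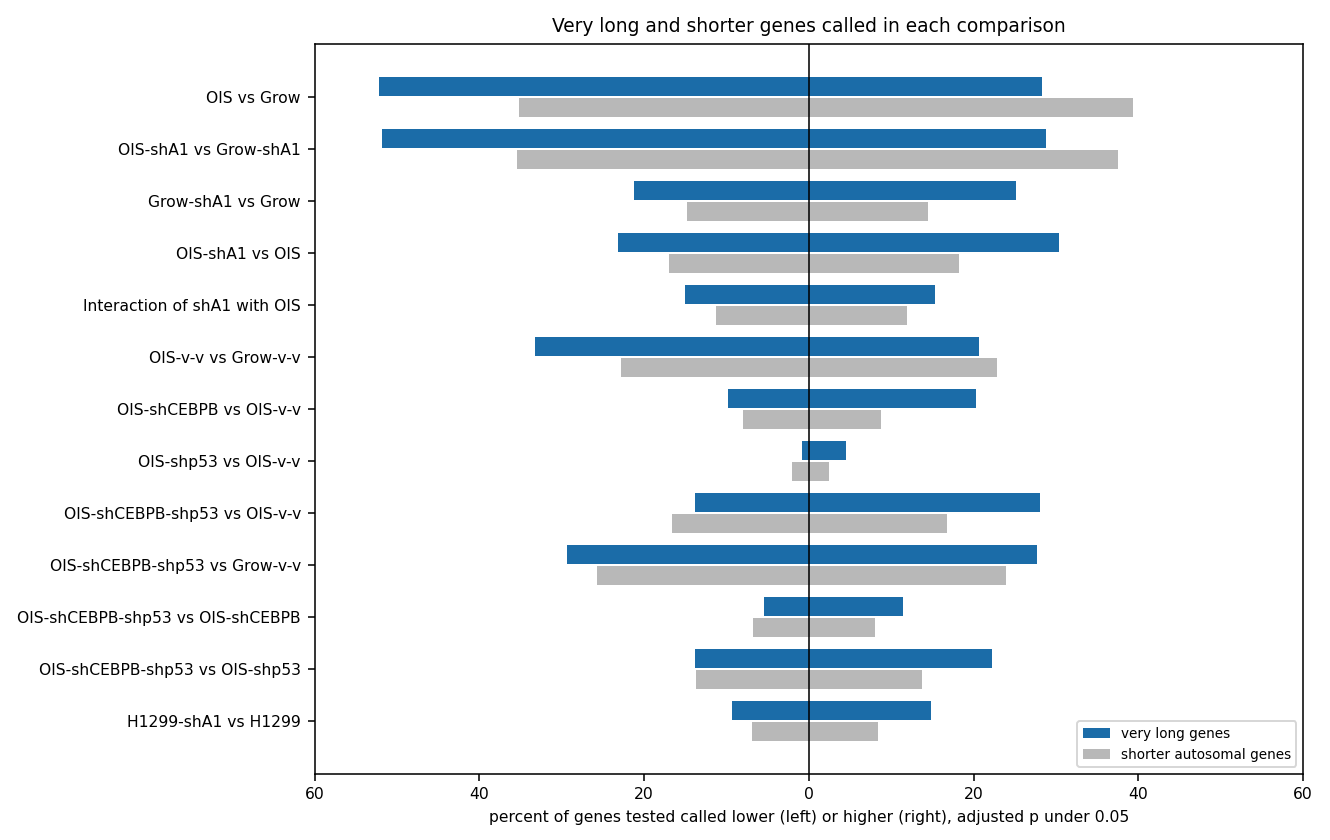
Percent of the genes tested that were called higher (to the right) or lower (to the left) at adjusted p under 0.05 in each comparison, for very long genes (blue) and shorter autosomal genes (grey). In OIS against Grow 52.2% of very long and 35.1% of shorter genes were called lower, and in OIS-shA1 against OIS 30.4% and 18.3% were called higher.

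The members named for growth were 3 that rose and 3 that fell. EBF1, a transcription factor of B cells and stromal progenitors (403838 bases), rose from 1.44, 2.05 and 2.73 CPM in Grow to 5.72, 7.14 and 8.91 CPM in Grow-shA1 (log2 fold change 1.79 ± 0.13, edgeR adjusted p = 8.66e-11). SORBS2, an adaptor at actin and adhesion sites, rose from 0.381, 0.750 and 1.06 to 1.97, 2.49 and 2.88 CPM (1.70 ± 0.19, adjusted p = 8.90e-08), and GRIP1, a scaffold of glutamate receptors, from 0.164, 1.07 and 1.59 to 1.77, 2.28 and 4.43 CPM (1.28 ± 0.26, adjusted p = 3.52e-04). NRXN3 fell to 0.460, 0.812 and 1.09 CPM in Grow-shA1 (−3.08 ± 0.19, adjusted p = 3.77e-12). None of these genes' groups overlapped. NALCN, the sodium leak channel, fell from 1.59, 2.28 and 3.73 to 0.177, 0.430 and 0.929 CPM (−2.34 ± 0.26, adjusted p = 1.29e-07). FGF14, which binds voltage-gated sodium channels, fell from 1.29, 1.83 and 2.07 to 0.0590, 0.322 and 1.13 CPM (−2.18 ± 0.33, adjusted p = 1.03e-05); its groups were apart by a narrow margin.

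In senescence other members led. CLDN11, a claudin of tight junctions (chr3:170136653-170578169, 441517 bases), had fallen in OIS against Grow (−3.13 ± 0.10, edgeR adjusted p = 1.28e-21). It rose from 8.72, 10.4 and 13.9 CPM in OIS to 22.1, 29.2 and 36.3 CPM in OIS-shA1 (1.42 ± 0.10, edgeR adjusted p = 6.63e-12). ANO3, an anoctamin, rose from 0.498, 0.855 and 1.07 to 2.23, 3.05 and 3.25 CPM (1.82 ± 0.19, adjusted p = 1.64e-08), and MYO16, already raised in OIS, rose further to 7.07, 10.8 and 15.7 CPM (1.59 ± 0.14, adjusted p = 1.55e-09). PLCH1, a phospholipase C, fell from 2.38, 3.25 and 4.37 to 0.316, 0.520 and 1.58 CPM (−2.33 ± 0.24, adjusted p = 1.00e-08). In all of these every OIS-shA1 library lay on 1 side of every OIS library. ADGRL2, the adhesion receptor latrophilin 2, fell from 5.72, 7.57 and 8.60 to 0.945, 1.94 and 2.35 CPM (−2.02 ± 0.14, adjusted p = 5.76e-12), and PCDH7 from 0.924, 1.55 and 3.77 to 0.176, 0.362 and 0.789 CPM (−2.27 ± 0.34, adjusted p = 5.52e-06).

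The effect of HMGA1 depletion differed between growth and senescence for part of the class. By the interaction term of edgeR, fitted over all 4 groups, 149 of 490 very long genes passed, 75 upward and 74 downward (30.4%, 15.3% and 15.1%; 23.6%, 12.2% and 11.4% of all 13903 genes tested). PDZD2, a PDZ-domain protein, was at a median of 6.98 CPM in Grow, 8.80 in Grow-shA1, 13.3 in OIS and 6.95 in OIS-shA1, an interaction of −1.35 ± 0.16 (adjusted p = 2.75e-08). CD36, a receptor that takes up fatty acids, had medians of 0.325, 0.263, 1.65 and 4.53 CPM in the same order (1.79 ± 0.51, adjusted p = 0.00749). NALCN moved in growth and not detectably in senescence, where its medians were 0.570 and 0.681 CPM (2.24 ± 0.39, adjusted p = 3.27e-05). At such levels a further fall would be hard to see. ATP8B4, a putative lipid flippase, had medians of 1.17, 2.05, 2.12 and 1.23 CPM (−1.33 ± 0.31, adjusted p = 0.00128). The interaction of NRXN3 (2.46 ± 0.68, adjusted p = 0.00632) rested on OIS-shA1 replicate 6: without it the value was 1.57 with an adjusted p of 0.175.

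The lists are again described by counts, beside the 25.1% higher and 21.2% lower of the class in growth and the 30.4% and 23.2% in senescence. Adhesion genes gave 5 higher and 11 lower of 22 in growth and 7 and 10 of 22 in senescence (medians −0.24 and −0.36). CDH13, a cadherin anchored to the membrane by lipid, rose by 0.43 ± 0.04 and 0.63 ± 0.04, and ROBO1, a receptor for SLIT guidance cues, changed by −0.26 ± 0.05 and −0.66 ± 0.05. Extracellular proteins gave 1 higher and 4 lower of 8, and 3 higher and 4 lower of 9. Trafficking and metabolism genes gave 9 higher and 3 lower of 26 in growth and 14 and 5 of 26 in senescence (medians 0.07 and 0.18). Cyclic AMP and calcium genes gave 3 higher and 7 lower of 24 and 5 and 4 of 21; CACNA2D1, a calcium channel subunit, changed by −1.12 ± 0.05 and −0.37 ± 0.08. Cytoskeletal genes gave 6 and 5 of 23, and 6 and 8 of 23; GTPase regulators 10 and 6 of 25, and 6 and 7 of 25; transcription regulators 8 and 3 of 31, and 7 and 10 of 34. Receptor kinases and phosphatases gave 2 and 2 of 5, and 2 and 1 of 6. Fragile-site genes gave 1 and 3 of 9 in both states, with LSAMP, an adhesion protein of 2194861 bases, higher by 1.17 ± 0.13 and 0.76 ± 0.12.

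The second experiment repeated the senescence comparison in other libraries. In OIS-v-v against Grow-v-v, 156 of 469 very long genes fell and 97 rose (33.3% and 20.7%; 23.2% and 22.7% of all 13344 genes tested), the medians were −0.12 and 0.01 and the class shift was −0.13. It was 0.00349 among genes under 60% AT and −0.16 at 60% or above. The offsets of replicates 1 to 5 were −0.15, −0.10, −0.18, −0.08 and −0.07 in OIS-v-v and 0.12, 0.15, 0.04, −0.02 and −0.28 in Grow-v-v. The groups overlapped only through Grow-v-v replicate 5, the library whose deviations followed exonic length, span and AT content; its part in this result was not tested. Without it the class shift was −0.18. Within replicates 1 to 3 the class shift was −0.24, with all same-numbered differences negative (−0.27, −0.25 and −0.22); within replicates 4 and 5 it was 0.03, with differences of −0.06 and 0.21. Very long genes called lower there were 152 of the 450 tested in both experiments; 142 of these (93.4%) also fell in OIS against Grow, where they made up 59.4% of 239. Among shorter genes these shares were close, at 85.8% and 56.0%. For rises, 82 genes were shared, 91.1% of 90 and 65.1% of 126, beside 87.5% and 51.1% of shorter genes. Only 2 genes were called in opposite directions.

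MCTP1 was at 0.563, 0.356, 0.331, 0.474 and 0.627 CPM in Grow-v-v and 21.4, 20.8, 18.9, 19.2 and 16.8 CPM in OIS-v-v (log2 fold change 5.37 ± 0.17, edgeR adjusted p = 1.23e-09). PDE7B was at 8.08, 7.01, 6.56, 5.29 and 6.34 CPM in Grow-v-v and 0.395, 0.236, 0.174, 0.432 and 0.240 CPM in OIS-v-v (−4.44 ± 0.23, adjusted p = 2.85e-08). Both replicate sets showed these changes with no overlap. NREP, a small protein linked to cell migration and TGFβ signalling, was at 174, 182, 176, 150 and 111 CPM in Grow-v-v and 15.8, 15.8, 15.4, 18.8 and 17.5 CPM in OIS-v-v (−3.24 ± 0.14, adjusted p = 6.30e-09). IQGAP2 rose by 3.84 ± 0.31 (adjusted p = 9.63e-07), and NRXN3 fell, at −3.79 ± 0.43 (adjusted p = 1.67e-05). WSCD1 was at 0.256, 0.178, 0.331, 0 and 0.139 CPM in Grow-v-v and 2.48, 3.78, 3.26, 1.73 and 1.44 CPM in OIS-v-v (3.70 ± 0.44, adjusted p = 2.52e-05).

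To ask which factors the class depends on in senescence, cells with shCEBPB, shp53 or both hairpins were compared with OIS-v-v. Very long genes were higher as a class in each, and the 3 comparisons share the OIS-v-v libraries. With shCEBPB, 95 of 469 rose and 46 fell (20.3% and 9.81%; 9.09% and 8% of all 13396 genes tested), and the class shift was 0.12. The offsets were 0.11, 0.16, 0.05, 0.09 and 0.14 in OIS-shCEBPB and −0.02, 0.02, −0.07, 0.04 and 0.04 in OIS-v-v, without overlap. With both hairpins, 132 of 471 rose and 65 fell (28.03% and 13.8%; 17.1% and 16.5% of all genes tested), the class shift was 0.14, and the offsets of OIS-shCEBPB-shp53, at 0.14, 0.13, 0.09, 0.16 and 0.15, again lay above all of OIS-v-v.

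With shp53 alone few genes were called: 21 of 463 rose and 4 fell (4.54% and 0.864%; 2.47% and 1.97% of all 13378 genes tested), while the class shift was 0.09. The OIS-shp53 offsets were 0.07, 0.08, 0.03, 0.12 and 0.10, and 4 of the 5 lay above all of OIS-v-v. The number of very long genes called changed with the fit: the fit with the replicate number as a block called 127, against 25 without it, leaving out OIS-v-v replicate 1 gave 16 and leaving out OIS-v-v replicate 4 gave 41, and replicates 1 to 3 alone gave 170. With the block 230 were called with shCEBPB, in place of 141. Within replicates 1 to 3 and within 4 and 5 the class shift was 0.13 and 0.09 with shCEBPB, 0.09 and 0.07 with shp53, and 0.15 and 0.11 with both. All 5 same-numbered differences were above 0 in each of the 3 comparisons.

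The medians were graded over span in the shorter classes too. With both hairpins the median log2 fold change was −0.09 under 10 kb, −0.02 at 10 to 30 kb, 0.01 at 30 to 100 kb, 0.06 at 100 to 300 kb, 0.12 at 300 to 500 kb, 0.13 at 500 kb to 1 Mb and 0.18 at 1 Mb or more (20 genes). Of those 20 genes, 2 were called higher and 3 lower. With shp53 the median at 1 Mb or more was 0.02 (18 genes). Among the very long genes themselves the Spearman correlation of fold change with span was weak. It was 0.03 with both hairpins, 0.07 with shCEBPB and 0.01 with shp53. AT content moved with span. With both hairpins, over all autosomal genes tested, the Spearman correlation of fold change was 0.16 with span and 0.22 with AT content, over genes of the same libraries. Among genes of at least 60% AT the class shift with both hairpins was 0.08, and with shp53 alone 0.05. Set against Grow-v-v, the cells with both hairpins had 139 of 473 very long genes lower and 131 higher (29.4% and 27.7%; 25.8% and 24% of all 13395 genes tested) and a class shift of −0.01, which was −0.08 within replicates 1 to 3 and 0.15 within 4 and 5. The same-numbered differences of replicates 1 to 5 were −0.08, −0.13, −0.07, 0.02 and 0.29. The last uses Grow-v-v replicate 5, whose deviations followed gene features. Without that library the class shift was −0.03, and its part in this result was not tested.

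GRIA1, a subunit of AMPA glutamate receptors (chr5:152869175-153193429, 324255 bases), was at 0.790, 1.30, 1.05, 0.324 and 0.601 CPM in OIS-v-v and 9.39, 9.77, 10.2, 7.68 and 6.30 CPM in OIS-shCEBPB (3.41 ± 0.27, edgeR adjusted p = 4.21e-06). CLDN11 was at 57.0, 64.6, 53.2, 55.4 and 55.6 CPM in OIS-v-v and 342, 323, 332, 290 and 270 CPM in OIS-shCEBPB (2.44 ± 0.08, adjusted p = 9.17e-09). Both stood high in every OIS-shCEBPB library. IQGAP2, which rose in senescence, was lower with shCEBPB, at 0.906, 0.551, 0.523, 0.477 and 0.738 CPM against 4.63, 4.84, 4.95, 6.49 and 3.96 CPM (−2.99 ± 0.21, adjusted p = 1.61e-06). MCTP1 fell as well (−1.12 ± 0.12, adjusted p = 4.36e-05) and so did MYO16 (−1.96 ± 0.20, adjusted p = 3.66e-05). These genes were not typical of those raised in OIS. Of the 127 very long genes higher in OIS than in Grow and tested in both comparisons, 28 were lower with shCEBPB (22.05%) and 15 higher (11.8%). Among shorter genes these shares were 14.5% and 4.63%. GAREM1, an adaptor of growth factor receptors, changed by −2.45 ± 0.21 (adjusted p = 7.44e-06), SLC9A9, an endosomal sodium/proton exchanger, by −2.10 ± 0.34 (adjusted p = 0.00121) and BRINP3 by 1.97 ± 0.23 (adjusted p = 1.25e-04).

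**Figure D4:**
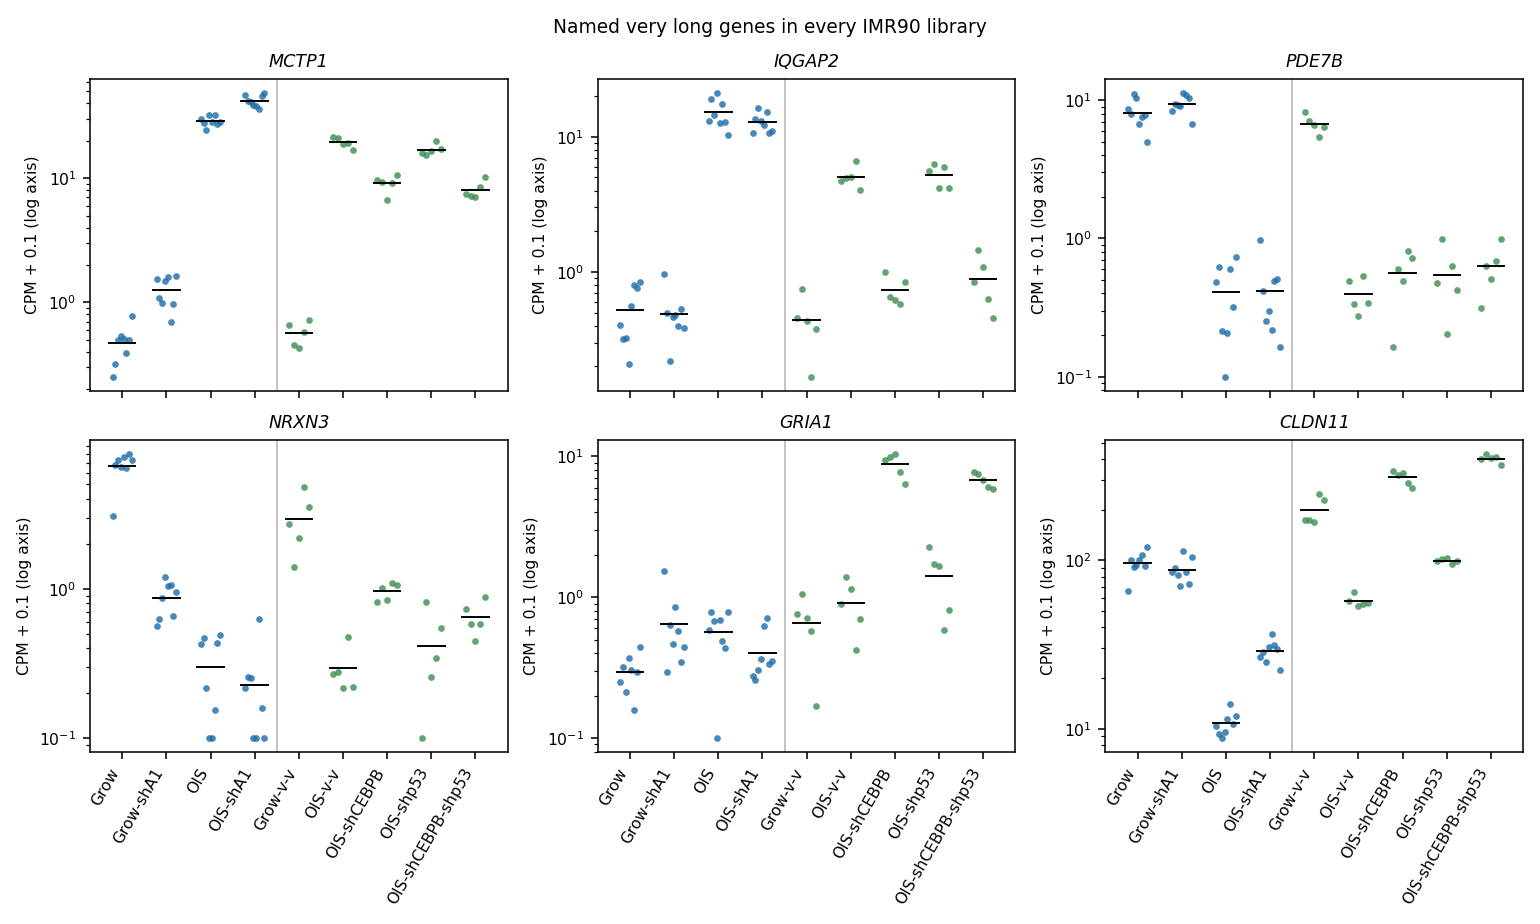
Level of 6 very long genes (CPM plus 0.1, log axis) in every IMR90 library, with a line at the group mean; blue points are the first experiment and green points the second. MCTP1 and IQGAP2 are high in senescence and PDE7B and NRXN3 low, and GRIA1 and CLDN11 are higher with shCEBPB than in OIS-v-v, CLDN11 reaching 427 CPM with both hairpins.

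Under shp53, PVT1, a long noncoding RNA gene beside MYC, was at 3.69, 3.23, 3.73, 3.04 and 2.50 CPM against 7.45, 7.26, 7.74, 6.65 and 6.85 CPM in OIS-v-v (−1.14 ± 0.12, edgeR adjusted p = 3.21e-04). EPHB1, an ephrin receptor, was at 6.91, 5.63, 6.98, 4.54 and 4.42 CPM against 2.48, 2.24, 1.92, 2.27 and 2.46 CPM (1.32 ± 0.16, adjusted p = 8.46e-04). Neither gene's groups overlapped. ST6GALNAC3, a sialyltransferase, changed by 1.59 ± 0.24 (adjusted p = 0.00344), ALK, a receptor tyrosine kinase, by 1.27 ± 0.26 (adjusted p = 0.0163) and ASCC3, an RNA and DNA helicase, by −0.45 ± 0.06 (adjusted p = 0.00211). The adjusted p of ALK was 0.0526 without OIS-shp53 replicate 1. The call of ASTN2 (−0.44 ± 0.11, adjusted p = 0.0462) was lost in 7 of 10 fits that left out 1 library each, those without replicates 1, 2, 3 or 5 of OIS-v-v or 1, 2 or 3 of OIS-shp53. It was also lost in the fit over all groups (adjusted p = 0.0593) and with other scaling factors or no count filter (0.0550 to 0.0880).

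With both hairpins BRINP3 rose from 0.734, 0.650, 0.698, 0.703 and 0.901 CPM in OIS-v-v to 5.36, 4.02, 4.78, 6.41 and 7.39 CPM (2.90 ± 0.20, edgeR adjusted p = 6.27e-07). ST6GALNAC3 rose by 2.83 ± 0.20 (adjusted p = 8.51e-07) and GRIA1 by 3.02 ± 0.25 (adjusted p = 2.77e-06). NR3C2, the mineralocorticoid receptor, fell from 2.09, 3.25, 1.92, 0.973 and 1.2 CPM to 0.637, 0.376, 0.292, 0.318 and 0.0596 CPM (−2.45 ± 0.44, adjusted p = 0.00109), and IQGAP2 and GAREM1 fell too (−2.65 ± 0.27 and −2.35 ± 0.24). The groups of these genes did not overlap. Against Grow-v-v the members with the largest rise were BRINP3 (5.02 ± 0.30), WSCD1 (4.53 ± 0.40) and ALK (4.47 ± 0.34), and those with the largest fall PDE7B (−3.65 ± 0.24), SLC35F3 (−3.33 ± 0.31) and GRIK2, a kainate receptor subunit (−2.93 ± 0.18), all at an adjusted p of 3.34e-06 or lower. By list, beside the 28.03% higher and 13.8% lower of the class, adhesion genes gave 8 higher and 2 lower of 24 with both hairpins (median 0.35), transcription regulators 15 and 5 of 34 (median 0.22) and cyclic AMP and calcium genes 9 and 5 of 21 (median 0.29). The other lists gave 6 and 2 of 24 for the cytoskeleton, 2 and 2 of 8 for extracellular proteins, 5 and 6 of 25 for GTPase regulators, 4 and 1 of 26 for trafficking, 4 higher of 11 for fragile sites and 3 higher of 6 for receptor kinases and phosphatases.

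The cells with both hairpins were also compared with those carrying 1 of them. Against OIS-shCEBPB, the cells with both hairpins had 54 of 475 very long genes higher and 26 lower (11.4% and 5.47%; 8.14% and 6.71% of all 13418 genes tested) with a class shift of 0.03 and overlapping offsets. The count of 80 was 159 with the replicate block, and it was 46 without OIS-shCEBPB replicate 1, 50 without its replicate 2, 52 without its replicate 3 and 52 without OIS-shCEBPB-shp53 replicate 1. Here PDZD2 rose from 6.99, 6.56, 5.67, 6.06 and 6.70 to 14.9, 13.5, 11.4, 12.2 and 10.5 CPM (0.97 ± 0.10, edgeR adjusted p = 8.40e-05). PVT1 fell from 10.6, 8.30, 10.5, 7.06 and 6.41 to 5.36, 4.34, 5.31, 3.34 and 4.41 CPM (−0.92 ± 0.17, adjusted p = 0.00410), and ST6GALNAC3 rose by 1.05 ± 0.14 (adjusted p = 4.81e-04). Lower were also SUGCT, a CoA transferase (−0.72 ± 0.15), and NAV2 (−0.69 ± 0.11), whose call was lost in the fit over all groups (adjusted p = 0.132). GABRB1, a GABA receptor subunit, was higher by 0.88 ± 0.23 (adjusted p = 0.0216), a call lost in the fit over all groups (adjusted p = 0.246) and without OIS-shCEBPB replicate 2 or OIS-shCEBPB-shp53 replicate 4.

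Against OIS-shp53 the cells with both hairpins had 105 of 472 very long genes higher and 65 lower (22.2% and 13.8%; 14% and 13.7% of all 13428 genes tested) and a class shift of 0.04, with 4 of 5 offsets above all of OIS-shp53. CLDN11 was at 99.8, 102, 103, 95.2 and 98.5 CPM in OIS-shp53 and 402, 427, 408, 410 and 368 CPM with both hairpins (1.999 ± 0.05, edgeR adjusted p = 4.92e-11). TMEM108 was at 1.09, 1.14, 1.21, 1.88 and 2.31 CPM and 7.85, 7.51, 7.46, 10.3 and 9.12 CPM (2.47 ± 0.20, adjusted p = 1.69e-06). GAREM1 fell from 18.1, 17.4, 18.7, 19.5 and 20.3 CPM to 3.34, 2.25, 1.40, 2.01 and 2.62 CPM (−3.02 ± 0.15, adjusted p = 4.26e-08). Each was apart in all 5 libraries. MYO16 and IQGAP2 fell by comparable amounts (−2.58 ± 0.20 and −2.70 ± 0.26), and GRIA1 rose by 2.30 ± 0.28.

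In H1299 the medians of very long and shorter genes were 0.01 and 0.00 under HMGA1 depletion. Of 493 very long genes tested, 73 rose and 46 fell (14.8% and 9.33%; 8.65% and 6.93% of all 14840 genes tested), 24.1% in either direction beside 15.6% of all genes and 15.3% of shorter genes. Among shorter genes the share called was 13.6% under 10 kb and 18.6% at 100 to 300 kb. The class shift was 0.01 and the offsets overlapped, from −0.04 to 0.03 in H1299-shA1 and from −0.05 to 0.02 in H1299. Of 96 very long genes that rose in Grow-shA1 against Grow and were tested here, 18 rose (18.8%, and 29.5% of the 61 that rose in H1299-shA1), beside 15.9% of shorter genes.

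RELN, the secreted matrix protein reelin (517733 bases), was at a lowest, median and highest level of 0.226, 0.645 and 0.785 CPM in H1299 and 1.34, 1.89 and 2.19 CPM in H1299-shA1 (1.66 ± 0.19, edgeR adjusted p = 1.12e-05). PDE3A, a cyclic nucleotide phosphodiesterase, fell from 0.915, 2.64 and 3.26 to 0.424, 0.551 and 0.876 CPM (−2.02 ± 0.27, adjusted p = 3.76e-05). Groups were apart, by a narrow margin for PDE3A. FSTL5, a follistatin-like protein, changed by −1.19 ± 0.18 (adjusted p = 1.53e-04), BACH2, a transcriptional repressor, by −0.87 ± 0.11 (adjusted p = 2.19e-05), PTPRN2 by 1.03 ± 0.18 (adjusted p = 6.75e-04) and WSCD1 by 0.99 ± 0.16 (adjusted p = 2.53e-04). MCTP1, higher in OIS-shA1 than in OIS (0.56 ± 0.07), was also higher in H1299-shA1, at 18.8, 20.8 and 23.2 CPM against 12.7, 14.1 and 15.3 CPM (0.54 ± 0.06, adjusted p = 1.195e-05). Adhesion genes gave 1 higher and 7 lower of 25, beside the 14.8% and 9.33% of the class. Among the 7 were SEMA5A (−1.37 ± 0.23) and SEMA3A (−0.60 ± 0.10), which, like EPHA3, were not lower in either IMR90 comparison with shHMGA1. The others were lower in IMR90 too: ROBO1 in both comparisons, NCAM2 and TENM3 in growth and EPHA5 in senescence.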

How the data were processed

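PolyA RNA-seq was analysed in 70 libraries from the authors' deposited gene count tables (raw, not normalized). The authors aligned reads to hg19 with STAR and GENCODE19 and counted over exons with featureCounts (1.5.2 per the header of the IMR90 table with shHMGA1; fragments in that table, single reads in the H1299 table, strand not used); other versions are not used here. The 3 tables were normalized and tested separately. Depth was 1903607 to 24890797 counts, and symbols were found for 95.9% of genes. Exon starts in the files count from 0, and 1 was added. AT content was read over the span from GRCh37.

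Counts were tested pairwise on the groups compared with edgeR 4.0.16 (R 4.3.3; filterByExpr, TMM factors, quasi-likelihood F test, two-sided, Benjamini-Hochberg over all genes tested, called under 0.05); SE is the log2 fold change divided by the root of F. CPM used TMM factors over a table. Scripts were tested on simulated data. The very long genes were set by the span rule, whereas the named members and the gene lists were chosen with earlier results of these data known. Named members were the 3 largest rises and falls per comparison among calls with a mean of at least 1 CPM and libraries that did not overlap (for the interaction, among calls of at least 1 CPM), up to 3 highly expressed members of each list, and those nearest the span limit; genes of other named families were left out. A list member picked for its level in 1 experiment was in places given for another. In the second experiment every same-numbered pair of deviations from the group means correlated at 0.15 or more, but not every library correlated best with its own number. The separate replicate sets can give such correlations, so they do not show that single numbers pair the samples. The labels do not say what a number marks. The main tests did not use the number, and the replicate block did. Alternatives were DESeq2 1.42.0, other scaling factors, count filters, span limits, gene subsets, 1 fit over all groups, the replicate block, leaving out each library and the replicate sets. The mRNA targeted by shp53 is not reported here.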

Additional observations from a re-analysis of the deposited data

Results flagged for a closer look

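Among the 163 groups of 4 to 10 values examined, 13 held a library far from the others by Dixon's criterion, and chance gives about 1 in 20. The class offset of OIS-shCEBPB-shp53 replicate 3 was −0.0106 against OIS-shCEBPB, with the others at 0.04 to 0.06, and 0.00445 against OIS-shp53, with the others at 0.05 to 0.07. That of H1299-shA1 replicate 3 was −0.0360, with the others at 0.01 to 0.03. NRXN3 was at 2.96 CPM in Grow replicate 1 (others 6.38 to 7.86) and at 0.378 CPM in OIS-v-v replicate 4 (others up to 0.177). In Grow-shA1, IQGAP2 was at 0.862 CPM in replicate 1, OCA2 at 0.472 CPM and GRIP1 at 4.43 CPM in replicate 3, and FGF14 at 1.13 CPM in replicate 5, each the highest of its group. In OIS-shA1 replicate 1, PDE7B was at 0.878 CPM and PLCH1 at 1.58 CPM, both the highest. ST6GALNAC3 was lowest in OIS-shCEBPB-shp53 replicate 5 (3.93 CPM, others 5.37 to 5.90), and FSTL5 highest in H1299 replicate 7 (6.47 CPM, others 3.53 to 4.61).

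The effect of shA1 differed between growth and senescence, by edgeR's interaction term, in the members below; NRXN3, NALCN, CD36, PDZD2, ATP8B4 and EBF1 were named by this same test, so their passing was fixed by the choice. Of all genes tested 23.6% passed. The interaction was positive on the log2 scale for NRXN3 (2.46 ± 0.68 SE), NALCN (2.24 ± 0.39), CD36 (1.79 ± 0.51), FGF14 (1.71 ± 0.41) and CLDN11 (1.55 ± 0.15). It was negative for PDZD2 (−1.35 ± 0.16), ATP8B4 (−1.33 ± 0.31), EBF1 (−1.28 ± 0.18), SORBS2 (−1.12 ± 0.25), MCTP1 (−1.02 ± 0.25) and ADGRL2 (−0.69 ± 0.21). The adjusted p of ADGRL2 was 0.0145 and those of the others lower. NRXN3 was too low to be tested in OIS-shA1 against OIS, and CD36 in Grow-shA1 against Grow. An interaction of a gene near the floor in 1 state can reflect the little room left for a fall there, which was not tested.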

How the results depend on the processing

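No named change turned its direction under any alternative run. The named members were chosen as the largest changes called in these same libraries, which makes a turn unlikely. With at least 10 counts in every library, 35 of the 78 named results could be read. The class shift stayed below 0 in OIS against Grow and OIS-shA1 against Grow-shA1, and above 0 with shCEBPB, shp53 or both hairpins against OIS-v-v, under every alternative run. It changed sign under some alternatives in Grow-shA1 against Grow, OIS-shA1 against OIS, H1299-shA1 against H1299, OIS-v-v against Grow-v-v, and both hairpins against Grow-v-v, shCEBPB alone or shp53 alone. The numbers of very long genes called under DESeq2 (pairwise fits only; none was run for the interaction), other scaling factors and count filters stayed within 1.5 times the counts given. A minimum fold of 1.5 left 226 called in OIS-shA1 against Grow-shA1, 75 in Grow-shA1 against Grow, 79 in OIS-shA1 against OIS, 50 for the interaction, 78 with shCEBPB, 16 with shp53, 103 with both hairpins against OIS-v-v, 22 against OIS-shCEBPB, 74 against OIS-shp53, and 31 in H1299. A single fit over all groups called 33 in OIS-shCEBPB-shp53 against OIS-shCEBPB. With the replicate block 230 were called with shCEBPB, 127 with shp53 and 159 with both hairpins against OIS-shCEBPB, and the block changed no other call by over 1.5 times (271, 249, 285 and 237 in the other comparisons of the second experiment). In the first experiment and H1299 the samples share only a number: the block gave 377, 368, 214, 227, 149 and 125 calls, and not every sample correlated best with its own number. Replicates 1 to 3 alone called 170 with shp53 and 163 against OIS-shCEBPB, and replicates 4 and 5 alone 40 with shp53; these sets, the subsets by 5 kb, 10 CPM and AT content and the class shift under the block were chosen after seeing the data.

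The class shift of OIS against Grow was −0.36 with a span of at least 500 kb, −0.22 with 10 counts in every library and −0.22 with no filter; that of OIS-shA1 against Grow-shA1 was −0.39 at 500 kb and −0.18 with no filter. Among genes of at least 60% AT it was −0.0297 in OIS-shA1 against OIS, 0.0486 with shp53, 0.0831 with both hairpins and −0.0112 against OIS-shCEBPB. With both hairpins it was 0.18 with no filter, and against OIS-shp53 −0.00104 at 10 CPM or more and 0.0708 within replicates 1 to 3. Within replicates 4 and 5 it was 0.0325 in OIS-v-v against Grow-v-v and 0.15 with both hairpins against Grow-v-v. The causes were not tested. Leaving out 1 library gave 16 to 41 calls with shp53 and 46 to 99 in OIS-shCEBPB-shp53 against OIS-shCEBPB; class shifts then ranged from −0.28 to −0.25 in OIS against Grow, −0.18 to −0.09 in OIS-v-v against Grow-v-v, 0.09 to 0.13 with shCEBPB, 0.07 to 0.11 with shp53 and 0.11 to 0.15 with both hairpins. Depth limits genes of few counts, and intervals here cover the spread between libraries only.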
